A study of Gallus gallus with 26 samples.

Results

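The change in gene expression over the last days before hatching was measured in the complexus muscle of broiler chickens (Gallus gallus), by setting embryonic day 19 (E19, 5 libraries) against embryonic day 15 (E15, 6 libraries). These 11 libraries were chosen by the day in their titles, out of 26 in the series, and all genes of the deposited table were used. The 6 libraries of embryonic day 17 (E17) were then placed between both days. The birds are meat-type chickens with no treatment named beyond age, and every library came from frozen muscle and a single batch, per the labels. The labels do not say whether each library is a separate bird, so the p-values here rest on the spread between samples alone, which may be technical.

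The complexus is the hatching muscle of the chick, which lies on the back of the neck and drives the beak against the shell at pipping. It enlarges in the days before hatching and shrinks afterwards. In skeletal muscle of the late embryo, growth comes mostly from the enlargement of fibres and the build-up of contractile and metabolic proteins, while the division of muscle precursors declines. A few very abundant transcripts of contractile and energy-handling proteins can therefore hold a large part of the messenger RNA of a muscle, and MARS-Seq, the method the series description names, counts tags near the poly(A) end of transcripts.

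The E19 libraries held 580768 to 1106816 counts and the E15 libraries 803168 to 2208872, so a count of 0 in 1 library allows up to 2.71 to 5.17 CPM (counts scaled to the library total) at E19 and 1.36 to 3.74 CPM at E15, taking 3 counts as the limit. Genes are listed by Ensembl identifier without names, and 0 of 8758 identifiers matched a RefSeq table of 25635 genes. The account therefore describes genes by abundance, by course and by the clusters the authors deposited, and gives 4 single identifiers. The markers that would check the tissue label, and those of blood, connective tissue or fat, could not be read, so their part in any result was not tested. In whole muscle, fewer cells of a type and less RNA per cell cannot be told apart.

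Many of the measured genes differed between E19 and E15, about equally in both directions when libraries were scaled by TMM factors. Of 5901 genes tested, 2220 (37.6%) passed an adjusted p of 0.05 in the quasi-likelihood test of edgeR with Benjamini-Hochberg adjustment. At E19, 1088 of them (18.4% of those tested) were higher and 1132 (19.2%) were lower. Most changes were moderate: the median log2 fold change was 0.89 among the higher genes (quartiles 0.62 and 1.28) and -0.97 among the lower genes (quartiles -1.39 and -0.70). A change of at least 2-fold was found for 452 higher genes (7.66% of those tested) and 532 lower genes (9.02%). A change of at least 8-fold was found for 33 higher and 35 lower genes, and of at least 16-fold for 14 in each direction. The 5 E19 libraries lay wholly above or wholly below the 6 E15 libraries for 1246 genes (21.1% of those tested), among them 629 genes that rose (57.8%) and 589 that fell (52.0%).

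The balance between higher and lower genes was a matter of scale. With library totals in place of TMM factors, the median over all genes shifted by -0.49 on the log2 scale, and 457 genes were higher and 2959 lower at E19. All 1132 genes called lower with TMM factors were also called lower with library totals. Of the 1088 genes called higher, 457 remained higher, 627 were no longer called and 4 were called lower. The 457 higher and 1132 lower genes therefore had the same direction on both scales, as did all 33 genes that were at least 8-fold higher and all 35 that were at least 8-fold lower. The shift is downward and small beside 8-fold. For the lower genes and the 8-fold genes the shared direction thus follows from the shift and is no test.

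**Figure D1:**
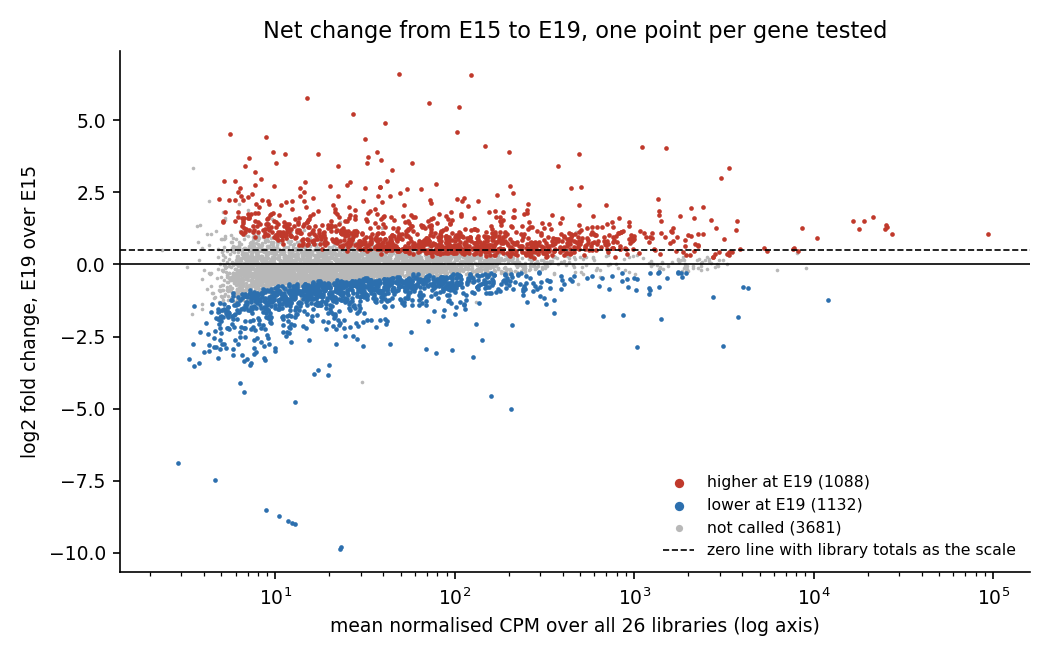
The log2 fold change of E19 over E15 (vertical axis) against the mean normalised CPM over all 26 libraries (horizontal axis, log scale), with 1 point for each of 5901 genes tested, coloured by the call at an adjusted p of 0.05. Red points (1088 genes higher at E19) thicken toward the abundant end, and the dashed line shows where zero would lie if library totals were the scale, 0.49 away from the zero line. The lowest blue points are genes with no count at E19, whose fitted values depend on the prior count.

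The genes that rose were mainly abundant ones, and those that fell came from every level. With the genes cut into 5 classes of like size by mean level over all libraries, 524 of 1180 genes in the most abundant class (91.2 CPM and above) were higher at E19 (44.4%) and 198 were lower (16.8%), with a median log2 fold change of 0.27. In the least abundant class (2.33 to 10.2 CPM), 85 of 1181 were higher (7.2%) and 232 were lower (19.6%), with a median of -0.34. The share of higher genes was greater in each successive class, at 7.2%, 8.54%, 11.4%, 20.7% and 44.4%, while the share of lower genes stayed between 16.8% and 21.0%. Fewer counts also mean that a change of the same size is less often called, and this was not tested apart from abundance. On the scale of library totals, 45, 36, 54, 89 and 233 genes were higher from the least to the most abundant class, so that the order did not hold between the lowest classes, and 511 to 664 genes were lower in each class.

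Of the 20 genes with the highest counts summed over all libraries of the series, 16 were higher at E19, 10 of them at least 2-fold, and 1 was lower. Their log2 fold changes ran from -1.24 to 1.64, with a median of 0.98, against -0.09 over all genes tested. For 16 of the 20 the E17 mean lay between the E15 and E19 means, and 9 rose at both steps. With library totals, 11 were higher and 3 lower, with a median of 0.48. The median over all genes tested was then -0.58.

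The RNA of the muscle became concentrated in fewer genes. Of the counts of a library, 50% were held by 36 to 44 genes at E19 and by 72 to 85 genes at E15, ranges that do not overlap. The means were 40.0 ± 3.39 genes at E19 (SD, n = 5) and 79.2 ± 4.4 at E15 (SD, n = 6), and the E17 libraries lay between, at 51 to 70 genes. The 20 genes with the highest counts in the series took 44.0%, 42.2%, 41.9%, 42.6% and 44.7% of the counts in the 5 E19 libraries, against 28.9% to 32.9% in the 6 E15 libraries (mean 30.6% ± 1.39, SD). Every E19 library was above every E15 library, and the difference of 12.44 points was larger than the spread between libraries (exact two-sided permutation p = 0.00433, the smallest that 5 against 6 libraries can give, and 0.00433 after Benjamini-Hochberg adjustment over the 3 pairs of days).

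The genes called higher took 69.1% ± 0.915 of the counts at E19 (SD, n = 5) and 47.1% ± 2.22 at E15 (SD, n = 6), a gain of 22.04 points. As few as 6 of these genes made up 50% of that gain, and the 10 that gained most made up 14.57 points. The genes called lower held 7.34% ± 0.338 of the counts at E19 (SD, n = 5), against 20.0% ± 1.42 at E15 (SD, n = 6). Their share fell by 12.62 points, and 18 genes made up 50% of that loss. The share of the 3681 genes that were not called fell by 9.01 points. These shares describe genes chosen by the same comparison and are no test of it.

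**Figure D2:**
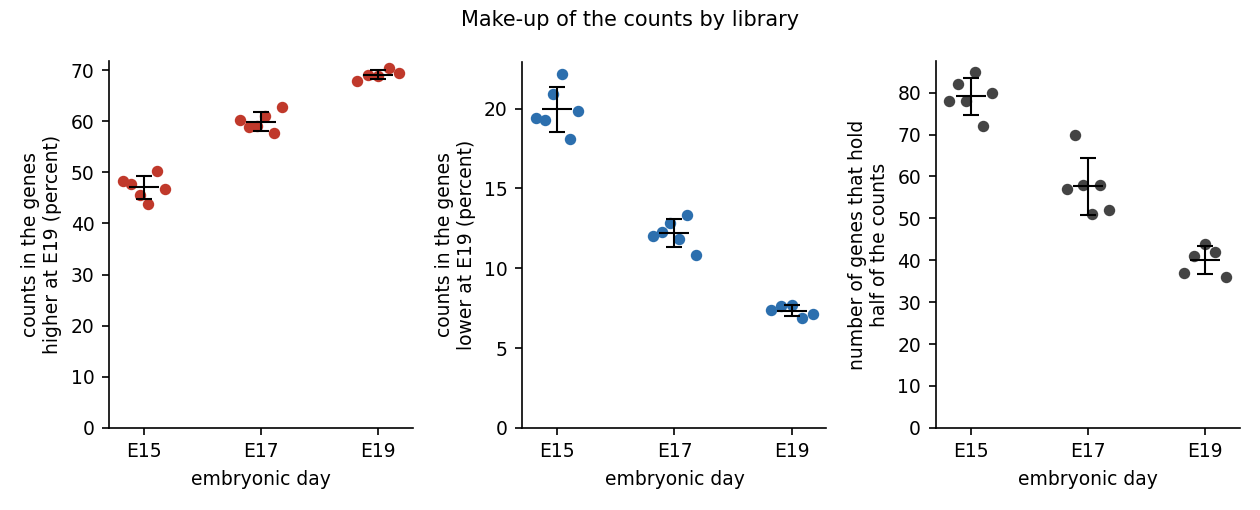
Make-up of the counts in each library at E15 (n = 6), E17 (n = 6) and E19 (n = 5): the percent of counts in the 1088 genes higher at E19 (left), in the 1132 genes lower at E19 (middle), and the number of genes that hold 50% of the counts (right). Points are libraries, and bars are means with SD. The E17 libraries fall between the other days in all 3 panels, at 57.7% to 62.8%, 10.8% to 13.3% and 51 to 70 genes.

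Of the 4 single genes, 1 in each direction has the largest fold and 1 the smallest p among genes of at least 10 CPM whose libraries do not overlap. Gene ENSGALG00000034241.2 had the largest rise. It had 218, 174, 77.3, 178 and 198 normalised CPM in the E19 libraries, against 0.664 to 3.4 at E15 (median 1.55, from 14 counts in 6 libraries). Every E19 library was far above every E15 library, with replicate 3 the lowest at E19. E19 exceeded E15 by 6.59 on the log2 scale (SE 0.40, Benjamini-Hochberg adjusted p = 6.11e-14 in edgeR), and by 6.10 with library totals. At E17 the gene stood at 4.1 to 19.4 CPM (median 15.9), above all E15 libraries and below all E19 libraries. The E17 level was 0.31 below the log2 midpoint of both days (SE 0.43, adjusted p = 0.784 in edgeR), so a rise at an even rate on the log scale was not distinguished from an uneven one.

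Gene ENSGALG00000010614.4 had the smallest p of the whole comparison. It had 3350, 3310, 3650, 4180 and 3690 normalised CPM at E19, against 331 to 542 at E15 (median 448). The libraries of each day lay close together, and those of E17 filled the gap between them with 1130 to 1900 CPM (median 1540). E19 exceeded E15 by 3.02 on the log2 scale (SE 0.14, Benjamini-Hochberg adjusted p = 1.14e-16 in edgeR), of which 1.76 lay before E17 and 1.26 after it. The gene averaged 6280 ± 1260 CPM at E20 (SD, n = 5).

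Gene ENSGALG00000028273.2 had the smallest p among the genes that fell. It had 16.5, 16.1, 38.7, 12.4 and 11.5 normalised CPM in the E19 libraries, against 469 to 790 at E15 (median 690). The E17 libraries, with 130 to 348 CPM (median 194), overlapped neither day. E19 minus E15 was -5.00 on the log2 scale (SE 0.30, Benjamini-Hochberg adjusted p = 3.71e-14 in edgeR), with -1.64 before E17 and -3.37 after it. Its E17 level was 0.87 above the log2 midpoint (SE 0.21, adjusted p = 0.0187, edgeR), so on the log2 scale the greater part of this fall came after E17. In CPM the means were 643 at E15, 207 at E17 and 19.1 at E19, so more CPM were lost before E17.

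Gene ENSGALG00000042685.1 had the largest fitted fall and no count in any E19 library. At E15 it ranged from 21.3 to 186 normalised CPM (median 97.9), and at E17 it had no count either. Taking 3 counts over the 5 E19 libraries as the limit, it was at least 118-fold lower at E19 than its E15 mean. It passed the filter on low counts only through E15, so no p is given for it. It is 1 of 8 tested genes that had counts in every E15 library and none at E19. Together these 8 genes held 594, 486, 861, 224, 624 and 96 counts in E15 replicates 1 to 6, so replicate 6, with 1355468 counts in all, had the fewest.

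**Figure D3:**
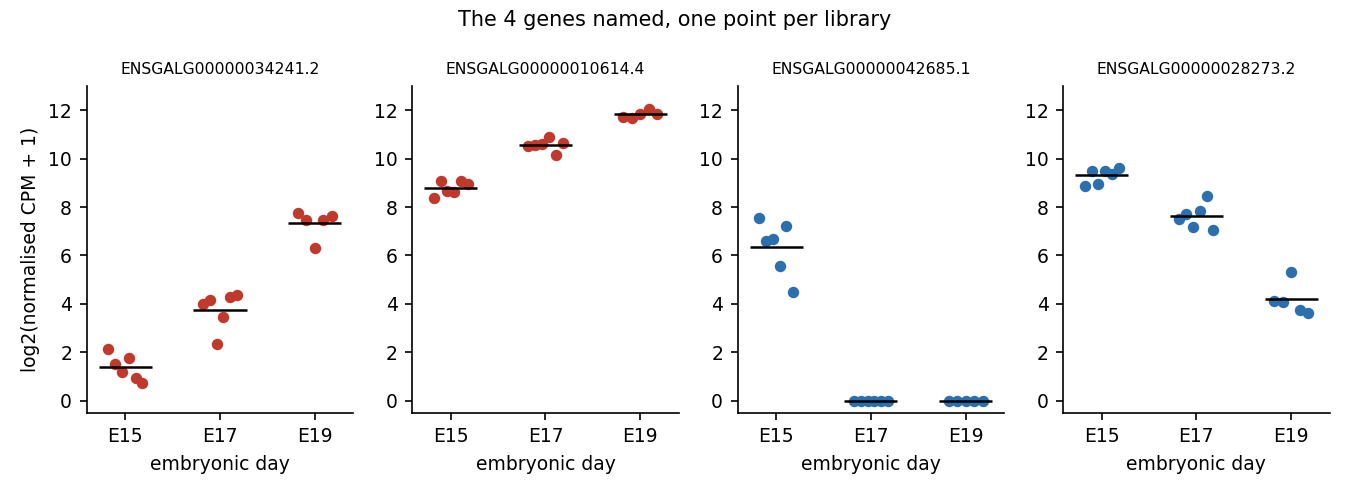
Levels of the 4 named genes as log2(normalised CPM + 1), with 1 point per library at E15 (n = 6), E17 (n = 6) and E19 (n = 5) and a line at the mean of each day. In ENSGALG00000034241.2, ENSGALG00000010614.4 and ENSGALG00000028273.2 the E17 libraries lie between the other days without overlap, whereas ENSGALG00000042685.1 is at 0 in all E17 and E19 libraries.

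Genes counted on 1 day only were found mostly at E15. Over all 8758 listed genes, 1 gene had a count in every E19 library and none at E15, and 39 had a count in every E15 library and none at E19. The E15 libraries held 7835628 counts together and the E19 libraries 4528462, so the deeper day could show more such genes. The 39 genes had from 9 to 776 counts over the E15 libraries (median 31). Of these, 8 had enough counts to be tested, through their level at E15, and all 8 were called. Their calls follow from how they were chosen and are no test, and the 1132 genes called lower include them. At E17, 8 of the 39 had no count, 16 had from 0 to 3 counts in all, and 7 were still counted in every library. Without E19 replicate 2 the 39 genes became 68, and without E19 replicate 3 they became 59.

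The place of E17 was examined gene by gene and library by library. The 3 comparisons share libraries: E17 against E15 uses the E15 libraries of the net comparison and E19 against E17 its E19 libraries, and both steps use the same E17 libraries, so the counts that follow describe the course and are not independent. The earlier step, E17 against E15, was called for 17.7% of the genes tested (9.08% higher and 8.66% lower at E17), and the later step, E19 against E17, for 17.2% (9.88% higher and 7.35% lower at E19). Of the 1088 genes higher at E19, 172 (15.8%) rose at both steps, 279 (25.6%) only before E17 and 341 (31.3%) only after it. Another 291 (26.7%) passed at neither step, and 5 passed at a step in the opposite direction. Of the 1132 lower genes, 96 (8.48%) fell at both steps, 299 (26.4%) only at the first, 273 (24.1%) only at the second and 464 (41.0%) at neither.

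Part of the net change was called only across the whole interval. The 755 genes (34.0% of 2220) that passed between E19 and E15 but at neither step had a median absolute log2 fold change of 0.79, against 1.00 for the 1465 others. The authors' deposited table tests successive days and asks for a 2-fold change at a step. At 1 step or both it calls 176 of the 1088 genes higher at E19 and 167 of the 1132 lower. The direction of the authors' call was not matched to that of the net change. Of the 984 genes that differed at least 2-fold between E19 and E15, 668 (67.9%) are called at neither step in the authors' deposited table. The authors' calls also ask for a maximum count of 30, while the filter used here has a minimum count of 10. The calls thus differ in more than the interval, and the part of each difference was not tested.

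The mean level at E17 lay between those of E15 and E19 for 912 genes that rose (83.8%) and 1001 that fell (88.4%). Among the higher genes it lay beyond E15 for 107 and beyond E19 for 69, and among the lower genes for 83 and 48. These counts use only the sign of differences between fitted means, so small reversals within the spread are included. The higher genes had a median log2 change of 0.42 up to E17 and 0.50 afterwards, and the lower genes of -0.45 and -0.53. Among the genes that differed at least 2-fold, the medians were 0.60 and 0.86 for the higher genes and -0.68 and -0.84 for the lower genes. On the log2 scale the later step was the larger in all 4 sets, and most so for the 2-fold rises. By share of counts the earlier step was the larger. The 20 genes with the highest counts gained 7.82 points up to E17 and 4.61 afterwards. At E15, E17 and E19 the higher genes held 47.1%, 59.9% and 69.1% of the counts, and the lower genes 20.0%, 12.2% and 7.34%.

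On a scale that sets the E15 mean to 0% and the E19 mean to 100%, the 6 E17 libraries lay at 28.8% to 42.2% for the 452 genes higher at least 2-fold. Their mean was 36.1% ± 5.42 (SD, n = 6), and none reached the midpoint. For the 532 genes lower at least 2-fold the E17 libraries lay at 40.0% to 50.6%, with a mean of 45.3% ± 3.91 (SD, n = 6). Over all genes called, with no limit on the fold, the E17 libraries lay at 32.8% to 45.9% for the 1088 higher genes (mean 41.2%) and at 38.9% to 50.6% for the 1132 lower genes (mean 44.8%). These ranges overlap, and the difference between rising and falling genes was not tested. For the 2-fold genes with library totals the means were 31.1% for the higher and 47.8% for the lower genes. Along the same scale the E19 libraries spread from 95% to 105% for the higher and from 96.3% to 106% for the lower genes, and the E15 libraries from -3.2% to 2.06% and from -12.5% to 8.28%. The E17 libraries reached neither, while the distance between the E15 and E19 libraries follows from how the genes were chosen.

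**Figure D4:**
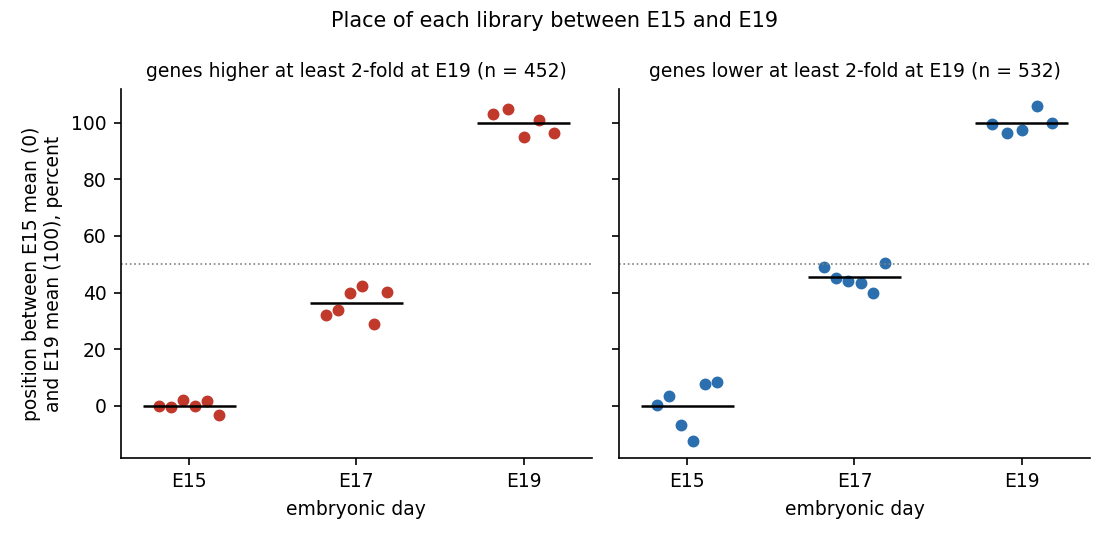
Position of each library at E15 (n = 6), E17 (n = 6) and E19 (n = 5) between the E15 mean (0%) and the E19 mean (100%), averaged over the 452 genes at least 2-fold higher at E19 (left) and the 532 at least 2-fold lower (right). Points are libraries, black lines are day means and the dotted line is the midpoint. The E17 points lie between 28.8% and 42.2% on the left and between 40.0% and 50.6% on the right, and the E15 and E19 means are 0 and 100 by construction.

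Whether a single gene left the midpoint was tested by setting E17 against the mean of the E15 and E19 coefficients. Of 5901 genes, 153 (2.59%) passed (edgeR, adjusted p under 0.05), 80 above (1.36%) and 73 below (1.24%). Of the higher genes, 37 (3.4%) were below the midpoint, nearer E15, and 25 (2.3%) above it, nearer E19. Of the lower genes, 21 (1.86%) were above the midpoint, nearer E15, and 5 (0.442%) below it, nearer E19. Genes with a late change thus outnumbered those with an early one in both directions, a difference in counts that was not tested, and most genes were not distinguished from the midpoint. The count rested in part on single libraries: 85, 79, 95 and 83 genes passed without E17 replicates 1, 2, 4 and 6, and DESeq2 called 262.

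The largest rises were weighted to the later step by size, and the largest falls were close to even. Of the 33 genes at least 8-fold higher at E19, 20 rose only from E17 to E19, 11 at both steps, 1 only at the first step and 1 at neither. Their median log2 change was 1.29 up to E17 and 2.78 afterwards. Of the 35 genes at least 8-fold lower, 16 fell only from E15 to E17, 12 at both steps, 5 only from E17 to E19 and 2 at neither, and 9 of the 35 had no count in any E19 library, so that their fitted fold depends on the prior count. Their median log2 change was -1.64 up to E17 and -1.89 afterwards. More of these falls were called in the earlier step alone, while the size of the fall was close to even. The median of their E15 means was 20.0 CPM, so genes already low at E17 had few counts left for a call at the later step. The split of calls between the steps was not tested apart from this floor.

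Few genes without a net change were called at both steps in opposite directions. Of the 3681 genes that did not differ between E19 and E15, 19 (0.516%) were higher at E17 than at E15 and lower at E19 than at E17. The reverse held for 20 (0.543%), each at an adjusted p under 0.05 for both steps in edgeR. The matching share over all genes tested was not counted. Both steps use the same 6 E17 libraries, in opposite directions, so a deviation of those libraries moves both, and these counts are a description. In the midpoint test, 34 of the 3681 (0.924%) were above the midpoint at E17, by a median of 0.55 on the log2 scale, against 1.36% of all genes tested. Below it were 31 (0.842%), with a median of -0.83, against 1.24% of all genes tested. Both shares were under those over all genes.

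The clusters in the authors' deposited table group genes by their course over all 5 days. A set of 917 genes in 5 clusters is attributed to DEseq and a set of 344 genes in 5 clusters to maSigPro, a regression method for time series, and all 344 are among the 917. The clusters were chosen on these libraries, so their directions are a description. Cluster 4 of the DEseq set rose most: 149 of its 161 tested genes were higher at E19 and none lower, against 18.4% higher and 19.2% lower over all genes. Its level, the mean log2 CPM relative to the mean of the 5 days, was -1.02 ± 0.04 in the 6 E15 libraries, -0.57 ± 0.06 in the 6 E17 libraries and 0.71 ± 0.21 in the 5 E19 libraries (mean ± SD). The E19 libraries ranged from 0.47 to 0.97, a wider spread than on either earlier day. By mean log2 level, the rise of this cluster came mostly after E17. At E17, 23 of its genes were below the midpoint and 4 above, and the others were not distinguished from it. Over all genes tested, 1.24% were below and 1.36% above. These counts are also a description, because of how the cluster was chosen.

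Cluster 2 of the DEseq set rose less. Of 171 genes, 98 were higher at E19 and none lower, with a median log2 change of 0.37 up to E17 and 0.28 afterwards. Above the midpoint at E17 were 13 of its genes, and 5 were below it, against 1.36% above and 1.24% below over all genes tested. Because the cluster was chosen by its course, these counts are a description. With library totals, 56 of its genes were higher and 19 lower, against 457 higher and 2959 lower of all 5901 genes tested. Clusters 1 and 3 were the falling ones, with 160 of 199 and 62 of 81 genes lower at E19, none higher, and median log2 fold changes of -1.32 and -1.34. By the median over genes, the first step was -0.68 and -0.71 and the second -0.80 and -0.65. By mean level, cluster 3 stood at 0.92 at E15, -0.08 at E17 and -0.62 at E19, so that more of its fall came before E17 on this measure. Cluster 5, with 291 genes, showed no common direction up to E19: 53 genes were higher (18.2%) and 27 lower (9.28%). Over all genes tested, 18.4% were higher and 19.2% lower, so its share of higher genes was near that of all genes. With library totals 21 were higher and 107 lower, on a scale where lower genes also outnumber higher ones over all genes tested.

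The maSigPro set separated the rising genes further. All 48 genes of its cluster 3 were higher at E19, also with library totals, with a median log2 fold change of 2.38. The level of this cluster was -1.73 ± 0.07 in the E15 libraries, -0.82 ± 0.11 in those of E17 and 0.78 ± 0.09 in those of E19 (mean ± SD, n = 6, 6 and 5). All 24 genes of its cluster 5 were higher with TMM factors, with a median of 1.5, and 22 with library totals. Here the first step of 0.88 was larger than the second of 0.50. At E17, 7 genes of cluster 3 were below the midpoint and none above, while 3 genes of cluster 5 were above and none below. Over all genes tested, 1.24% were below and 1.36% above, and the cluster counts are a description because of how the clusters were chosen. Cluster 1, with 104 of 115 genes lower and none higher, had the strongest fall, with a median log2 fold change of -1.76. Cluster 4 rose little, with 26 of 47 genes higher and 1 lower and a median of 0.46 that became -0.03 with library totals. In cluster 2, 38 of 109 genes were higher and 9 lower, and with library totals 17 were higher and 32 lower. Over all 5901 genes tested, library totals gave 457 higher and 2959 lower, so the turn in cluster 2 is not particular to it.

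**Figure D5:**
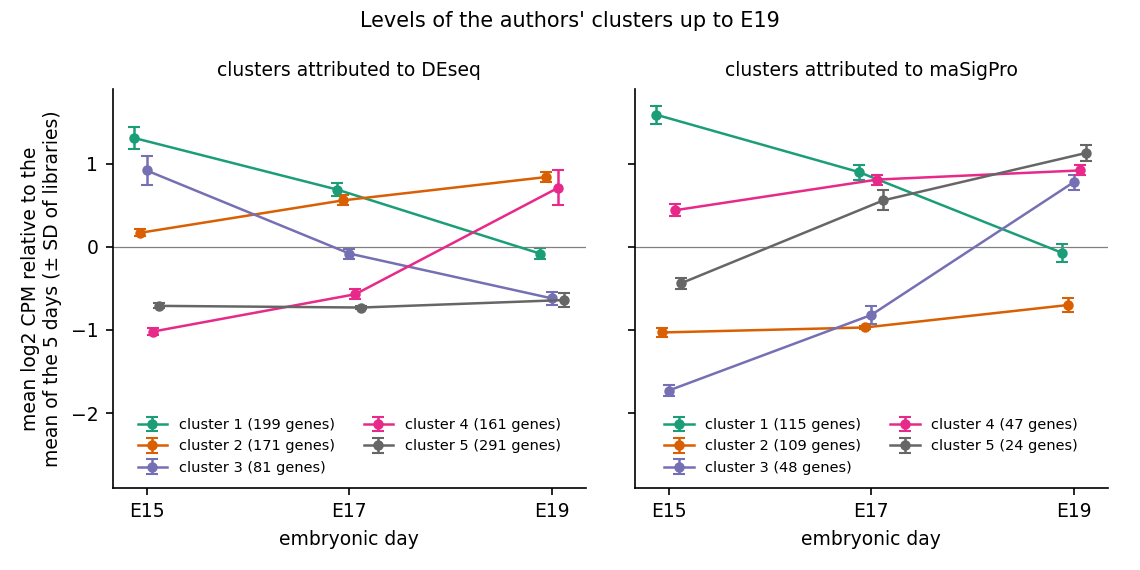
Level of the genes in the authors' clusters at E15 (n = 6), E17 (n = 6) and E19 (n = 5), as mean log2 CPM scaled with TMM factors relative to the mean of the 5 days, for the clusters attributed to DEseq (left) and to maSigPro (right). Points are day means and bars the SD between libraries. Cluster 4 on the left and cluster 3 on the right rise most steeply after E17, and cluster 1 falls on both sides.

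The clusters hold a larger share of the strong changes than of all changes. Of the 5901 genes tested, 903 (15.3%) lie in a DEseq cluster. Of the 2220 genes that differed between E19 and E15, 549 (24.7%) belong to a deposited cluster and 1671 to none. Of the 984 genes that differed at least 2-fold, 393 (39.9%) are in a cluster and 591 in none. Of the genes that differed at least 8-fold, 26 of the 33 higher and 25 of the 35 lower are in a cluster. The authors' deposited thresholds ask for a 2-fold change at a step, and the part of this in these shares was not tested.

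The libraries of E19 varied more among themselves than those of E15. Fitted to each day alone, the common biological coefficient of variation was 24.9% at E19 and 16.7% at E15, with 17.0% at E17. Leaving out E19 replicate 2 lowered the E19 value to 21.8%, and leaving out E15 replicate 4 lowered the E15 value to 15.2%. The ratio of E19 to E15 was 1.49, and it lay between 1.31 and 1.64 when any 1 library of these days was left out. The fit across all days estimates a spread for each gene and shares it between the days. Its common value over genes was 19.2%, between both values. The part of the wider spread at E19 in the place of E17 was not tested. When the E15 and E19 libraries were fitted alone, 1945 genes differed, 1014 higher and 931 lower at E19.

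The libraries labelled E20 and E21 are used here by the day in their labels, while the series description names its last stages as hatch and chick placement, and which is meant was not settled. On the scale of 0% at E15 and 100% at E19, the genes at least 2-fold lower at E19 stood at 99.4% ± 5.96 in the 5 E20 libraries and 107% ± 3.26 in the 4 E21 libraries (mean ± SD). The genes at least 2-fold higher stood at 92.8% ± 5.51 and 64.7% ± 4.27 in the same libraries. With library totals these values were 86.8% and 78.4% for the lower genes and 121% and 113% for the higher genes. On both scales neither group returned to its E15 level by E21, while the direction after E19 depended on the scale.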

How the data were processed

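Per the submitters' processing notes, reads were aligned with STAR 2.7.10a, counted with HTSeq 2.0.2 and compared with DESeq2. The genome build, annotation, settings, strand and use of molecular identifiers were not given in the sources available, so near-identical or overlapping genes cannot be told apart. The authors deposited whole-number raw counts for 26 libraries, per the file headers. The authors deposited log2 fold changes and adjusted p-values for E17 against E15 and E19 against E17, made with DESeq2 per the submitters' processing notes. They also deposited cluster numbers and call thresholds (adjusted p-value of 0.05, absolute log2 fold change of 1, maximum count of 30). A further 26 per-library columns were not used.

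Counts were tested with edgeR 4.0.16 in R 4.3.3: TMM factors, filterByExpr by day (minimum count 10, minimum total 15; 5901 genes with 99.23% of the counts), 1 quasi-likelihood fit of all 26 libraries with day as the only term, and Benjamini-Hochberg adjustment over all genes. The procedure was tested on simulated data, in which fewer genes changed than were called here and the spread was the same on all days. SE is the absolute log2 fold change divided by the square root of F. Levels are CPM with TMM factors, and log2 CPM used a prior count of 2. Axis positions average the signed distance from the E15 mean over genes, divided by the mean distance of E19. Permutation tests used scipy 1.17.1. Alternatives were DESeq2 1.42.0, other scalings and filters, fewer libraries and a replicate block. The TMM factors were 0.749 to 0.837 at E19, 0.897 to 1.02 at E17 and 1.07 to 1.16 at E15.

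Groups came from the titles. Of 40 pairs of replicates, none agreed within sampling noise (chi-square per degree of freedom 2.8 to 11.5). Total counts limit precision, and floors cover counting error only. Named genes had an adjusted p under 0.05, a mean of 10 CPM or more on one day and no overlap between E19 and E15 libraries, and in each direction the gene of largest fold and then that of smallest p were taken. Gene lists and cell type markers need names and were not analysed here. The comparison, members and lists were chosen with earlier results of these data known.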

Additional observations from a re-analysis of the deposited data

Results flagged for a closer look

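In 58 groups of 5 or 6 libraries, 5 values stood apart from the other libraries of their day by a gap larger than Dixon's 95% critical value, and chance alone flags about 1 group in 20. Gene ENSGALG00000028273.2 had 38.7 normalised CPM in E19 replicate 3, against 11.5 to 16.5 in the other 4 E19 libraries, and without this library its log2 fold change was -5.45. In E17 replicate 2, 70 genes held 50% of the counts, against 51 to 58 in the other E17 libraries. The mean level of DEseq cluster 3 was 0.61 in E15 replicate 6, where the E15 mean was 0.92. The mean level of maSigPro cluster 5 was 0.33 in E17 replicate 5, where the E17 mean was 0.56, and 0.96 in E19 replicate 2, where the E19 mean was 1.13.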

How the results depend on the processing

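Over 30 results and 503 alternative values, 456 stayed on the same side and within the set limits and 47 moved. The limits are wide: a factor of 1.5 for counts of genes, and the SD between libraries for cluster levels and axis positions. The genes of the clusters and of the axis were chosen on these libraries, so their agreement is no test. The 456 include 84 refits of the 4 named genes, all of which passed. These genes were chosen as the extremes of this comparison, and ENSGALG00000042685.1 could be tested only through E15. Their passes therefore follow from the choice and are no test. With library totals, 3416 genes differed between E19 and E15 (457 higher, 2959 lower; 182 and 1503 at least 2-fold), 1679 between E17 and E15 and 1572 between E19 and E17. Against a 1.5-fold change, 828 genes passed, 429 higher and 399 lower. DESeq2 put 262 genes off the midpoint, 138 above and 124 below. With library totals, E19 minus E15 for DEseq clusters 1 to 5 was -1.82, 0.19, -1.90, 1.26 and -0.35, and for maSigPro clusters 1 to 5 -2.10, -0.10, 2.05, -0.01 and 1.09, so that DEseq cluster 5 and maSigPro clusters 2 and 4, at 0.08, 0.33 and 0.48 with TMM factors, changed sign. With a prior count of 0.5 it was -1.52 and -1.93 for DEseq clusters 1 and 3, and -1.80 and 2.68 for maSigPro clusters 1 and 3. The cause was not tested. Genes counted at E15 and not at E19 numbered 105 when at least 50% of the libraries had a count and 115 with at least 3 counts over the day, and those counted at E19 and not at E15 numbered 2 and 9.

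Without single libraries, the genes that differed between E19 and E15 numbered 2021 to 2150, those off the midpoint 79 to 200 (39 to 115 above, 29 to 85 below), those counted only at E15 39 to 68 and those only at E19 1 to 2. Without E17 replicates 1, 2, 4 and 6, 46, 50, 48 and 39 genes were above and 39, 29, 47 and 44 below, and without E19 replicate 1, 48 were above. The E19 and E15 libraries of the same number deviated together with correlations of -0.062 to 0.03 across genes. For other numbers the correlations were -0.095 to 0.083. No pairing by number was seen, and whether a weak one exists was not tested. With a replicate block, 2082 genes differed between E19 and E15 and 121 were off the midpoint, and 0 of 5 E19 libraries correlated best with their own number.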
